A study of Mus musculus with 6 samples.

Results

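Expression of the cyclins, the cyclin-dependent kinases (CDKs) and the CDK inhibitors was examined after knockdown of the long non-coding RNA *Snhg18* in mPASMCs, smooth muscle cells of the mouse pulmonary artery. The genes were taken by name, as every protein-coding gene whose symbol is that of a cyclin (*Ccn* and a letter), a numbered CDK (*Cdk*) or an inhibitor of the *Cdkn1*, *Cdkn2* or *Cdkn3* series, which gave 51 of the 55487 genes in the table. They were 25 cyclins, 18 CDKs and 8 inhibitors, and 48 had enough reads to be tested. The cells were bought as primary mPASMCs, grown in DMEM with fetal bovine serum and used at early passage. They were transfected with a small interfering RNA (siRNA) against *Snhg18* (si-*Snhg18*) or with a control siRNA (si-NC), and polyadenylated RNA of 3 libraries per group was sequenced. Both groups went through transfection with a lipid reagent, and no untransfected cells and no second siRNA were included. The oxygen level and the time from transfection to harvest are not given in the sources used here for the sequenced cells. Nothing states that the 3 libraries of a group came from separate cultures, so the p-values measure the spread between these libraries, which may be technical. The comparison asks how the genes that drive and brake the cell cycle stood when *Snhg18* was knocked down.

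A cyclin is the regulatory subunit that switches on a CDK, a kinase that has little activity alone. D-type cyclins with Cdk4 or Cdk6 respond to growth signals and begin the phosphorylation of the retinoblastoma protein, E-type cyclins with Cdk2 carry cells into DNA synthesis, and A- and B-type cyclins with Cdk2 and Cdk1 carry them through it and into mitosis. The INK4 inhibitors (*Cdkn2a* to *Cdkn2d*) bind Cdk4 and Cdk6, and the CIP/KIP inhibitors (*Cdkn1a* to *Cdkn1c*) bind whole cyclin-CDK complexes. Other members of both families serve transcription, with their kinases acting on RNA polymerase II or the Mediator complex. Pulmonary artery smooth muscle cells are quiescent in the healthy vessel wall and enter the cell cycle when the wall thickens in pulmonary hypertension. The proteins Cdk2, p27 (from *Cdkn1b*) and Pcna were the cell cycle proteins followed by Western blot in work with such cells.

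Transcription of many mitotic genes is timed by 2 short promoter elements, the CCAAT box and the cell cycle genes homology region (CHR), so promoter sequence is shown for 5 members of the G2 and mitotic programme whose values are described later. Each stretch has 150 bases on the gene's own strand, 5′ to 3′, from the RefSeq promoter windows (GRCm38.p6), and holds no annotated exon. Capitals mark CCAAT and TTTGAA on either strand, the other strand reading ATTGG and TTCAAA. They belong to the mitotic cyclins *Ccnb1* (chr13:100786571-100786720, minus strand) and *Ccnb2* (chr9:70421555-70421704, minus strand), to *Ccnf*, a cyclin that acts as an F-box protein rather than with a CDK (chr17:24251485-24251634, minus strand), to the mitotic kinase *Cdk1* (chr10:69352939-69353088, minus strand) and to the CDK-associated phosphatase *Cdkn3* (chr14:46760391-46760540, plus strand).
Ccnb1: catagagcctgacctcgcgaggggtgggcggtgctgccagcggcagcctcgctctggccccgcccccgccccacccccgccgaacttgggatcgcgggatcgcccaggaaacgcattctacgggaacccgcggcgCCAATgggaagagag
Ccnb2: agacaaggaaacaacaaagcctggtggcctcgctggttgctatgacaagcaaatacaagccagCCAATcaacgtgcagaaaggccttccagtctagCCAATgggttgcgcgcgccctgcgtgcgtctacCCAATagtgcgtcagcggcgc
Ccnf: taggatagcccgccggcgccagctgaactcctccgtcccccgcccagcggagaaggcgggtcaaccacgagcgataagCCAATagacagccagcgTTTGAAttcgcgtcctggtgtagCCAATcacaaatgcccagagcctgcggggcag
Cdk1: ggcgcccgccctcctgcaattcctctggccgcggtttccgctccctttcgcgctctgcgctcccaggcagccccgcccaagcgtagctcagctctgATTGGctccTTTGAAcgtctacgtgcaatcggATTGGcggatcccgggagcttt
Cdkn3: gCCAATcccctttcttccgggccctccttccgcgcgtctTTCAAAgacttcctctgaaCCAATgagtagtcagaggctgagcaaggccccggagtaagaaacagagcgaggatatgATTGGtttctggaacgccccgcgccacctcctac

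In the 250 bases before the start site, *Ccnb2*, *Cdk1* and *Cdkn3* each held 3 CCAAT boxes, and *Ccnb1* and *Ccnf* each held 2. *Ccnb2*, *Ccnf*, *Cdk1* and *Cdkn3* also held TTTGAA there, and *Ccnb1* did not. Some of these matches lie outside the printed stretches, which for *Ccnb1*, *Ccnf* and *Cdk1* end 84, 75 and 26 bases before the start site. Of 32851 promoter windows of that length, 33.8% held CCAAT at least once, 10.1% at least 2 times, and 16% held TTTGAA, so single matches are common. RefSeq windows were matched for 41 of the 51 members, and CCAAT was found at least 2 times in 12 of them and TTTGAA at least once in 7. Matches were not limited to members that fell, as *Cdk16*, which rose with the block described later, and *Ccnt2*, which was not called, also held 3 CCAAT boxes. CCAAT was found at least 2 times in 6 of the 13 matched members that fell with that block, in 1 of the 8 that rose and in 5 of 17 others that were tested. TTTGAA was found in 4 of the 13 matched members that fell with that block, in 3 of the 8 that rose (*Ccni*, *Cdk16* and *Cdkn2b*) and in 0 of 17 others that were tested. The E2F-type sequence TTTCCCGC was found in 2 of the 41, against 0.895% of all windows. The GC box GGGCGG was found in 28 of the 41, against 32.7% of all windows. It was found in 10 of the 13 matched members that fell with that block, in 5 of the 8 that rose and in 12 of 17 others that were tested. A member with more than 1 window was counted by the window with most matches, whereas the shares of all windows count each window. A match is only a run of letters, and its absence from a window says only that these letters are not there. The windows of *Ccnd1*, *Ccnd2* and *Ccna2* were not matched.

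The libraries held 18097718 to 25988746 counted reads, si-*Snhg18* 3 being the smallest, so that 3 reads correspond to 0.115 to 0.164 CPM, the unit of reads scaled to the normalized library total that is used below. *Snhg18* (ENSMUSG00000096956, GRCm38 chromosome 15, 32240565 to 32244662) was at 23.5, 22.4 and 22.2 CPM in si-NC and at 10.6, 11.2 and 9.97 CPM in si-*Snhg18*, and fell to 46.7% of the control level (log2 fold change -1.10 ± 0.10 SE, adjusted p = 0.00727 in edgeR's quasi-likelihood test). All 8 smooth muscle markers passed the filter, with a summed level of 3647 to 3803 CPM in si-NC and 2733 to 3598 CPM in si-*Snhg18*. One of them, *Tagln*, fell (log2 fold change -0.51, adjusted p = 0.0427), and *Acta2* (-0.22, 0.594), *Myh11* (-0.60, 0.297), *Cnn1* (-0.48, 0.0812), *Des* (-1.79, 0.0916), *Lmod1* (-0.23, 0.774), *Smtn* (0.00, 0.975) and *Cald1* (-0.26, 0.103) did not pass the test. Of the leukocyte markers *Adgre1* and *Cd3e* had no read, *Ptprc* had at most 8 reads, and *Cd53* fell from 94.7 to 116 CPM to between 50.5 and 51.2 CPM (log2 fold change -1.10, adjusted p = 0.00727). *Cd14* was at 11.1 to 31.3 CPM in si-NC and 15.5 to 49.2 CPM in si-*Snhg18* and rose with the block described later (adjusted p = 0.00369), and *Cd68*, *Csf1r* and *Lyz2* stayed under 9 CPM in every library. The endothelial markers summed to 12.5 to 15.4 CPM over the 6 libraries, the fibroblast and mesothelial markers to 379 to 594 CPM, mostly *Pdgfra*, and the epithelial markers to 1.19 to 22.7 CPM, nearly all *Krt18*. With that block 5 of the 8 smooth muscle markers fell (62.5%, against 13.6% of all tested genes). They were *Tagln*, *Myh11*, *Cnn1*, *Des* and *Cald1*, of which only *Tagln* passed without it. Of the other lists *Cd53*, *Tek*, *Pdgfra*, *Msln* and *Krt18* fell with the block. The part of these shifts in the values of the cyclin, CDK and inhibitor genes was not tested.

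Of the 48 tested members, 5 passed the test at an adjusted p under 0.05, or 10.4%, against 7.36% of all 14531 tested genes. The inhibitor *Cdkn2b* and the cyclin *Ccni* rose (4.17% of the tested members, against 3.65% of all genes), and the cyclin *Ccng1*, the kinase *Cdk4* and the inhibitor *Cdkn2d* fell (6.25%, against 3.71%). At least a 1.5-fold change was seen in 3 of them, *Cdkn2b*, *Ccng1* and *Cdkn2d*, while 1.72% of all tested genes rose and 1.95% fell by that much with a call. When the repeat number of the libraries entered the fit as a block, so that si-*Snhg18* was compared with si-NC within each number, 27 members passed, or 56.25%, against 27.2% of all tested genes. Of these, 18 fell (37.5% of the tested members, against 13.6% of all genes) and 9 rose (18.75%, against 13.6%). With the block but without the libraries numbered 3, 1 member rose and 3 fell, and 4.44% of all tested genes were called. Without the block, the calls of *Cdkn2b*, *Ccni*, *Cdk4* and *Cdkn2d* held without si-*Snhg18* 2 and were lost when any other single library was left out (lowest adjusted p among those fits 0.0581, for *Cdkn2b* without si-*Snhg18* 1). Without the block the CPM of the groups did not overlap for 8 members that were lower and 8 that were higher, 16.7% each, which lies near the 15.5% and 15.4% of all tested genes. The median log2 fold change over the tested members was -0.07, against 0.01 over all tested genes, and 28 of the 48 were negative. The median was -0.10 over the 23 tested cyclins, -0.03 over the 17 tested CDKs and -0.54 over the 8 inhibitors, and the plot of fold changes by role shows both signs in each of these classes. In RNA of whole cultures, fewer cycling cells and less of a transcript per cell cannot be told apart.

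**Figure D1:**
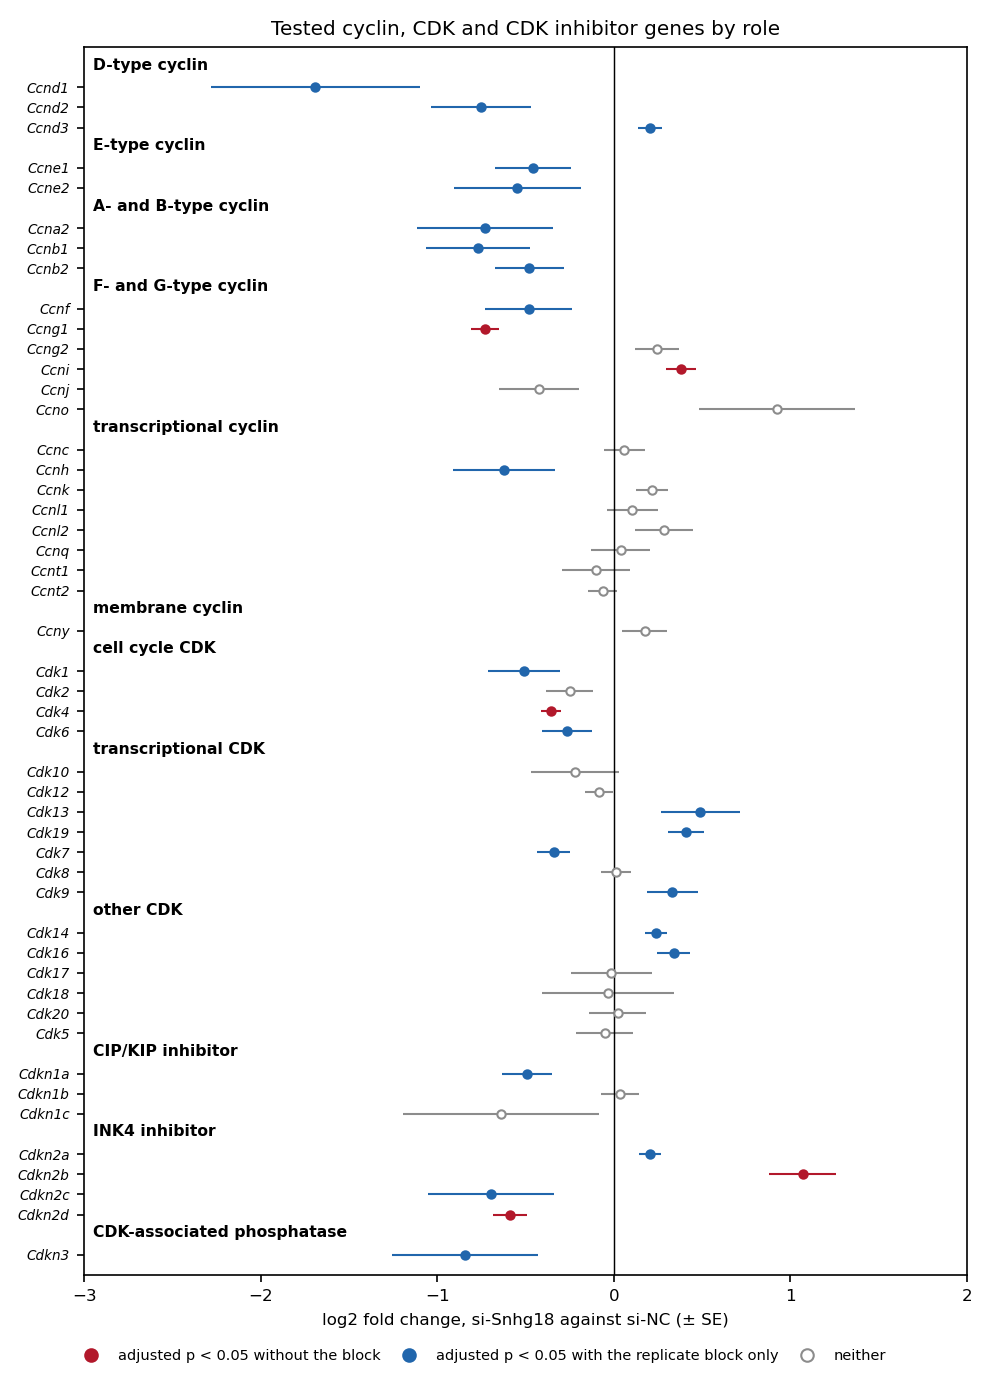
Log2 fold change of si-*Snhg18* against si-NC (x axis, points, with bars of ± 1 SE from the fit without the block) for the 48 tested members, grouped by role on the y axis. Red points passed an adjusted p of 0.05 without the block (5 members), blue points with the replicate block only (22 members) and open grey points in neither fit (21 members); *Ccnd1* lies lowest at -1.69 and *Cdkn2b* highest at 1.07.

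The 3 D-type cyclins did not move together. *Ccnd1*, the cyclin D1 gene through which growth factors act (chromosome 7, 144929931 to 144939925), was at 419, 721 and 345 CPM in si-NC and at 63.7, 292 and 104 CPM in si-*Snhg18*. Every si-*Snhg18* library lay below every si-NC library, but the libraries numbered 2 stood well above the others in both groups. Its log2 fold change was -1.69 ± 0.59 SE, the largest in size of any member, and did not pass without the block (adjusted p = 0.142). Within the numbers it was -2.72, -1.30 and -1.73, and it fell with the block (log2 fold change -1.90 ± 0.24, adjusted p = 0.00196). Leaving out si-*Snhg18* 2 also gave a call without the block (adjusted p = 0.00971), when 22.1% of all tested genes were called. *LTO1*, a gene that overlaps *Ccnd1* on the other strand, had at most 749 reads against 17661 for *Ccnd1* and was higher in si-*Snhg18* (log2 fold change 0.48, adjusted p = 0.0398).

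*Ccnd2*, the gene of cyclin D2, was at 500, 752 and 502 CPM in si-NC and at 259, 493 and 289 CPM in si-*Snhg18*. The groups were separate only by the narrow gap between si-NC 1 and si-*Snhg18* 2, and the libraries numbered 2 were again the highest of both groups. The log2 fold change was -0.75 ± 0.28 (adjusted p = 0.166), and *Ccnd2* fell with the block (-0.78 ± 0.07, adjusted p = 0.000857). *Ccnd3*, the third of these genes, went the other way, at 255, 234 and 247 CPM in si-NC and 296, 275 and 279 CPM in si-*Snhg18*. Its log2 fold change of 0.21 ± 0.07 passed with the block (adjusted p = 0.0277) and not without it (0.12). *Bysl*, on the opposite strand to *Ccnd3*, had at most 986 reads against 7469.

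Per kilobase of exon, the D-type cyclins summed to 341 ± 71.6 FPKM in si-NC and 230 ± 48.9 FPKM in si-*Snhg18* (SD, n = 3). *Ccnd1* made up 37.9% ± 7.01 of that sum in si-NC and 16.5% ± 9.70 in si-*Snhg18*, and *Ccnd3* 35.2% ± 7.76 and 60.1% ± 13.1 (two-sided exact permutation p = 0.1 for both shares, the smallest that 3 against 3 can give). In si-*Snhg18* 1, the library with the least *Ccnd1*, its share was 8.61%. The share of *Ccnd2* was 27% ± 1.45 and 23.4% ± 3.42, with overlapping libraries (exact permutation p = 0.2). *Ccnd3* was thus the most abundant D-type cyclin transcript per length in every si-*Snhg18* library, and *Ccnd1* was so only in si-NC 2.

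The cyclins of DNA synthesis and mitosis were lower in si-*Snhg18*, and all 5 that were tested fell with the block and none without it. Of all tested genes 13.6% fell with the block and 3.71% without it. *Ccne1*, a partner of Cdk2 at the start of DNA synthesis, was at 34.3, 40.9 and 32.8 CPM in si-NC and 21.9, 35.4 and 21.4 CPM in si-*Snhg18*. *Ccne2*, its close relative, was at 19.3, 28.1 and 15.2 CPM and 10.1, 21.7 and 10.9 CPM. For both E-type genes si-*Snhg18* 2 reached into the range of si-NC, and the adjusted p was 0.252 and 0.395 without the block and 0.0164 and 0.0171 with it (log2 fold change -0.48 and -0.59 with the block). *Ints8* overlaps *Ccne2* on the other strand with up to 1596 reads, more than the 687 of *Ccne2* itself, and reads of the pair cannot be told apart if strand was not used.

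*Ccna2*, the cyclin A gene of dividing somatic cells, was at 47.0, 75.4 and 45.2 CPM in si-NC and 19.3, 52.3 and 29.3 CPM in si-*Snhg18*. *Ccnb1*, the main partner of Cdk1 at entry into mitosis, was at 45, 60.9 and 44.2 CPM and 20.6, 43.3 and 24.2 CPM. *Ccnb2*, the second cyclin B gene, was at 34.5, 41.4 and 31.0 CPM and 22.2, 32.7 and 21.6 CPM. Of the 3 genes only *Ccnb1* had groups that did not overlap, and in each of them the libraries numbered 2 were the highest of their group. The log2 fold changes were -0.73 ± 0.38 for *Ccna2* (adjusted p = 0.294), -0.77 ± 0.30 for *Ccnb1* (0.172) and -0.48 ± 0.19 for *Ccnb2* (0.191). With the block the adjusted p was 0.00709, 0.00369 and 0.00807. The processed pseudogenes of *Ccnb1* and *Ccnb2* had at most 14 and 6 reads.

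**Figure D2:**
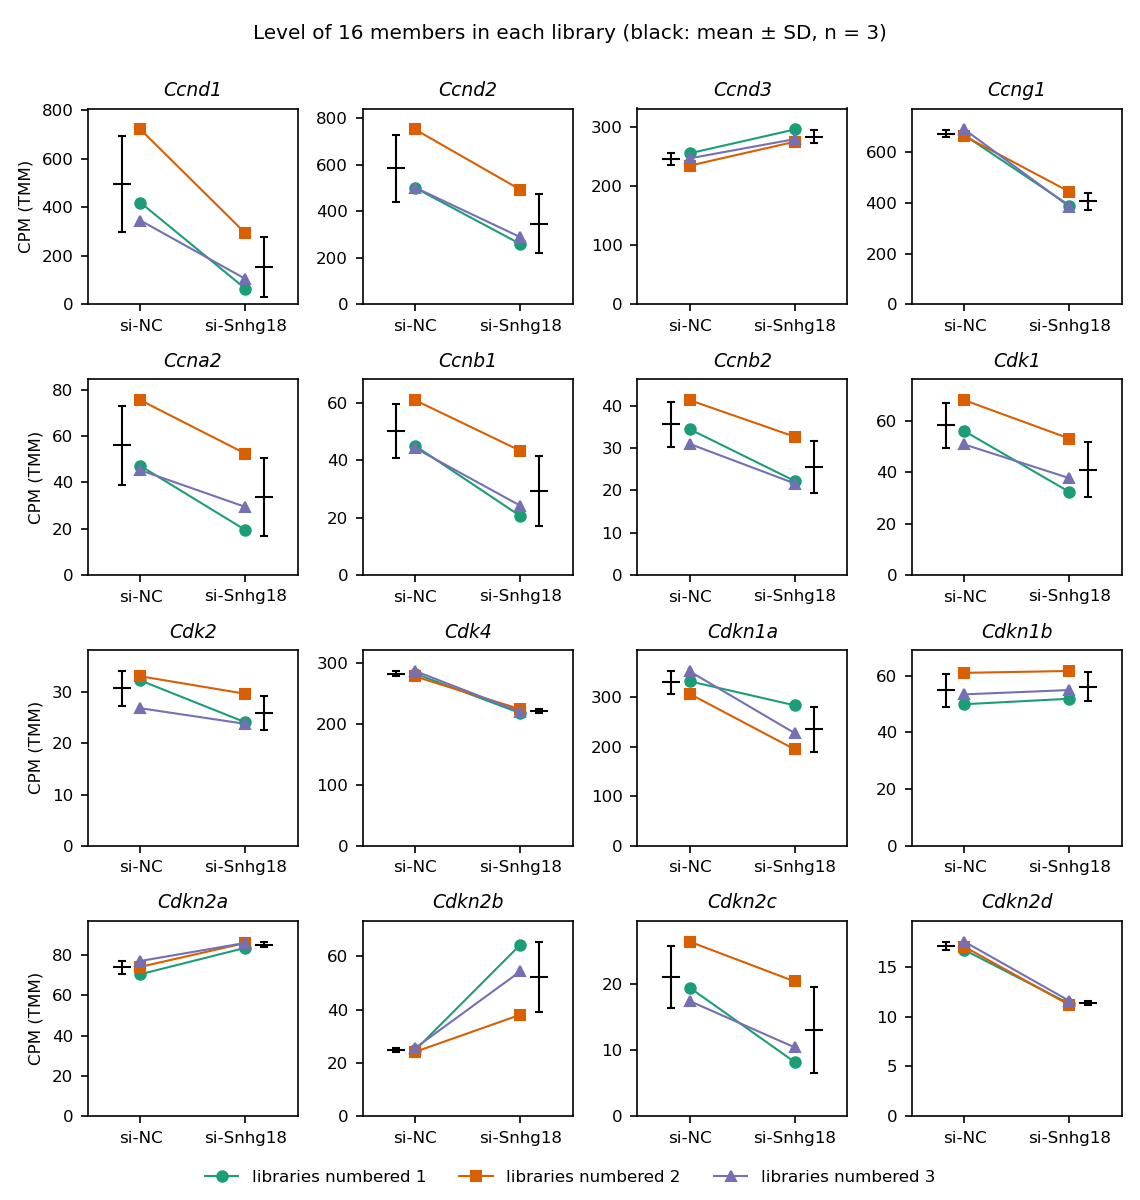
CPM after TMM normalization (y axes, from 0, a scale of its own in each panel) of 16 members in the 3 si-NC and 3 si-*Snhg18* libraries (x axis), with lines joining libraries that carry the same repeat number and black marks for the mean ± SD of each group. The orange squares of the libraries numbered 2 lie highest in both groups for *Ccnd1*, *Ccnd2*, *Ccna2*, *Ccnb1*, *Ccnb2*, *Cdk1* and *Cdkn2c*. They also lie highest in both groups for *Cdk2* and *Cdkn1b*, which were called in neither fit. The lines of *Ccng1*, *Cdk4* and *Cdkn2d* run nearly on top of one another.

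Summed per length, the E, A and B cyclins stood at 87.2 ± 17.1 FPKM in si-NC and 57.7 ± 20.6 FPKM in si-*Snhg18*. In si-*Snhg18* 2 the sum was 81.3 FPKM, above the 80.0 and 74.7 FPKM of si-NC 1 and si-NC 3. The make-up of the sum moved little, with *Ccnb2* at 26.9% ± 1.43 and 29.7% ± 3.52 and *Ccnb1* at 23.1% ± 0.606 and 20.2% ± 1.23. *Ccna1*, the cyclin A gene of the germ line, and *Ccnb3*, which acts in meiosis, were not tested, with at most 1 read in any library.

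*Ccng1*, a target gene of p53 whose product recruits a phosphatase, had the smallest p-value among the members. It lies on chromosome 11 (40748552 to 40755311) and was at 668, 664 and 691 CPM in si-NC and 390, 444 and 385 CPM in si-*Snhg18*. The 3 libraries of each group lay close together and far from the other group. *Ccng1* fell to 60.3% of the control level (log2 fold change -0.73 ± 0.08, adjusted p = 0.00855 without and 0.000828 with the block). The call held in 3 of the 6 fits that leave out 1 library and was lost without si-NC 1 (adjusted p = 0.0684), si-NC 3 (0.074) or si-*Snhg18* 3 (0.0783), and in each of those fits 0% of all tested genes were called.

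The related *Ccng2* was at 78.5, 73.9 and 85.3 CPM in si-NC and 105, 77.7 and 99.5 CPM in si-*Snhg18*, with no call in either fit (log2 fold change 0.24, adjusted p = 0.284 and 0.0574). *Ccni*, an atypical cyclin most studied in neurons and kidney podocytes (chromosome 5, 93181933 to 93206495), was at 181, 167 and 177 CPM in si-NC and 245, 206 and 231 CPM in si-*Snhg18*. It rose 1.30-fold (log2 fold change 0.38 ± 0.08, adjusted p = 0.0471), the p nearest to the threshold of the 5 calls, and with RLE factors in place of TMM the adjusted p was 0.0507. *Ccnf*, which marks proteins for degradation as part of an SCF ubiquitin ligase, was at 18.9, 26.5 and 18.6 CPM and 11.8, 20.5 and 13.5 CPM and fell with the block alone (log2 fold change -0.50, adjusted p = 0.013, against 0.285 without it). *Ccnj* and *Ccno* were low, at 2.45 to 4.53 CPM and 0.890 to 3.40 CPM, and neither was called.

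Of the 8 transcriptional cyclins, 1 was called with the block (12.5%, against 27.2% of all tested genes) and none without it (against 7.36%). *Ccnh*, the partner of Cdk7 in the complex that activates other CDKs and opens transcription, was at 22.7, 30.4 and 21.8 CPM in si-NC and 10.9, 23.1 and 14.6 CPM in si-*Snhg18* (log2 fold change -0.67 and adjusted p = 0.0122 with the block, 0.243 without it). *Rasa1*, which overlaps *Ccnh* on the other strand, had up to 16411 reads against 744 for *Ccnh* and rose (log2 fold change 0.73, adjusted p = 0.0344), opposite in direction to *Ccnh*. The cyclins T1 and T2 of the elongation factor P-TEFb (*Ccnt1* and *Ccnt2*), the Mediator cyclin *Ccnc*, *Ccnk*, *Ccnq* and the splicing-linked *Ccnl1* and *Ccnl2* had log2 fold changes between -0.10 and 0.28. *Ccny*, a cyclin held at the plasma membrane, was at 114 ± 10 CPM in si-NC and 129 ± 19.2 CPM in si-*Snhg18* (log2 fold change 0.18, adjusted p = 0.44).

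Among the 4 cell cycle CDKs, *Cdk4* fell without the block, *Cdk1* and *Cdk6* with it, and *Cdk2* in neither fit. Of the 4, 25% fell without the block, against 3.71% of all tested genes. With the block 75% fell, *Cdk4* included, against 13.6%. *Cdk4*, the catalytic partner of the D-type cyclins (chromosome 10, 127063534 to 127067920), was at 283, 279 and 288 CPM in si-NC and 218, 225 and 220 CPM in si-*Snhg18*. The spread within each group was under 5 CPM as an SD (283 ± 4.51 against 221 ± 3.26, n = 3), and the groups were far apart. The log2 fold change was -0.36 ± 0.06 (adjusted p = 0.0208, and 0.0041 with the block), a fall to 78.1% of the control level. *Tspan31*, whose gene overlaps *Cdk4* on the opposite strand, had up to 4542 reads against 6822 and a log2 fold change of 0.00 (adjusted p = 0.987).

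*Cdk1*, the kinase of mitosis, was at 55.9, 68.0 and 50.8 CPM in si-NC and 32.2, 53.1 and 37.6 CPM in si-*Snhg18*, with si-*Snhg18* 2 above si-NC 3. Its log2 fold change was -0.51 ± 0.20 (adjusted p = 0.189) and -0.53 ± 0.10 with the block (adjusted p = 0.00811). *Cdk6* was at 54.1, 73.8 and 57.5 CPM and 48.2, 57.9 and 48.4 CPM, and fell with the block (log2 fold change -0.26, adjusted p = 0.0301, against 0.305 without it). *Cdk2*, the kinase of E- and A-type cyclins, was at 32.3, 33.2 and 26.9 CPM in si-NC and 24.1, 29.7 and 23.8 CPM in si-*Snhg18*. The groups overlapped, and its log2 fold change of -0.25 was called in neither fit (SE 0.13 and adjusted p = 0.297 without the block, SE 0.09 and adjusted p = 0.0829 with it). *Pcna*, the clamp of the DNA polymerases, was at 107, 116 and 98 CPM and 113, 108 and 103 CPM (log2 fold change 0.01 ± 0.08, adjusted p = 0.938). Summed per length, the 4 kinases went from 167 ± 1.62 FPKM to 130 ± 5.60 FPKM, of which *Cdk4* was 82.6% ± 2.09 in si-NC and 82.8% ± 2.30 in si-*Snhg18*.

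The transcriptional CDKs were mixed in sign. *Cdk7*, the kinase paired with *Ccnh*, was at 40.5, 36.6 and 44.2 CPM in si-NC and 32.0, 33.0 and 30.7 CPM in si-*Snhg18*, without overlap, and fell with the block (log2 fold change -0.34, adjusted p = 0.0344, against 0.0839 without it). *Cdk9*, the kinase of P-TEFb, was at 90.1, 71.3 and 91.9 CPM and 117, 88.1 and 113 CPM and rose with the block (0.33, adjusted p = 0.00639). *Cdk13*, a kinase of elongating polymerase, was at 112, 95.6 and 121 CPM and 193, 104 and 164 CPM (0.45 with the block, adjusted p = 0.0265). In all 3 of its numbered pairs *Cdk13* was higher in si-*Snhg18*, though the libraries of the groups overlapped. The Mediator kinase *Cdk19* was at 18.2, 18.3 and 17.8 CPM and 26.8, 22.5 and 22.7 CPM, and also rose with the block (0.41, adjusted p = 0.021), whereas its paralogue *Cdk8* had a log2 fold change of 0.01 (adjusted p = 0.949, and 0.943 with the block). *Cdk10* and *Cdk12* were not called (-0.22 and -0.09).

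Of the remaining kinases, *Cdk14*, which works with cyclin Y at the membrane, was at 59.3, 57.5 and 56.3 CPM in si-NC and 69.1, 65.8 and 69.3 CPM in si-*Snhg18*. *Cdk16*, another partner of cyclin Y, was at 155, 172 and 149 CPM and 182, 217 and 203 CPM. The groups of both genes were separate, and both rose with the block (log2 fold change 0.24 and 0.34, adjusted p = 0.0288 and 0.00811) and not without it (0.0786 and 0.0806). *Cdk5*, *Cdk17*, *Cdk18* and *Cdk20* lay between -0.05 and 0.02 on the log2 scale with no call. *Cdk15* was not tested, with 2, 6 and 3 reads in si-NC and 0, 1 and 0 reads in si-*Snhg18*.

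Among the 4 INK4 inhibitors 1 rose and 1 fell without the block, and 2 rose and 2 fell with it. This was 25% each way without the block, against 3.65% of all tested genes that rose and 3.71% that fell. With the block it was 50% each way, against 13.6% each way. *Cdkn2b*, the gene of p15 (chromosome 4, 89306299 to 89311039), was at 24.8, 24.2 and 25.6 CPM in si-NC and 64.3, 38.1 and 54.4 CPM in si-*Snhg18*. The si-NC libraries were within 1.5 CPM of one another, and the si-*Snhg18* libraries were all higher and widely spread. *Cdkn2b* rose 2.10-fold (log2 fold change 1.07 ± 0.19, adjusted p = 0.0264, and 1.04 with adjusted p = 0.00217 with the block). *Cdkn2d*, the gene of p19 INK4d (chromosome 9, 21288410 to 21291407), was at 16.7, 17.0 and 17.5 CPM in si-NC and 11.3, 11.2 and 11.6 CPM in si-*Snhg18*. It fell to 66.4% of control with almost no spread in either group (log2 fold change -0.59 ± 0.10, adjusted p = 0.0216, and 0.00654 with the block).

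*Cdkn2a*, next to *Cdkn2b* on chromosome 4 (89274471 to 89294653), encodes both p16 and, in another reading frame, the p53 regulator Arf, which a count over the gene does not separate. It was at 70.5, 74.2 and 77.1 CPM in si-NC and 83.7, 86.0 and 86.1 CPM in si-*Snhg18*, and rose with the block (log2 fold change 0.21, adjusted p = 0.0371, against 0.111 without it). *Cdkn2c*, the gene of p18, was at 19.4, 26.4 and 17.4 CPM and 8.19, 20.4 and 10.4 CPM, with si-*Snhg18* 2 above both si-NC 1 and si-NC 3, and fell with the block (-0.77, adjusted p = 0.0144, against 0.283). Per length, the INK4 transcripts summed to 121 ± 4.18 FPKM in si-NC and 146 ± 5.83 FPKM in si-*Snhg18*. *Cdkn2b* went from 14.8% ± 0.599 to 25.6% ± 5.57 of that sum and *Cdkn2d* from 9.90% ± 0.182 to 5.45% ± 0.186 (two-sided exact permutation p = 0.1 for both), while *Cdkn2a* remained the most abundant at 68.2% ± 1.11 and 65.3% ± 3.48 (exact permutation p = 0.3). The stacked plot of levels per length shows these shares next to those of the D-type cyclins.

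**Figure D3:**
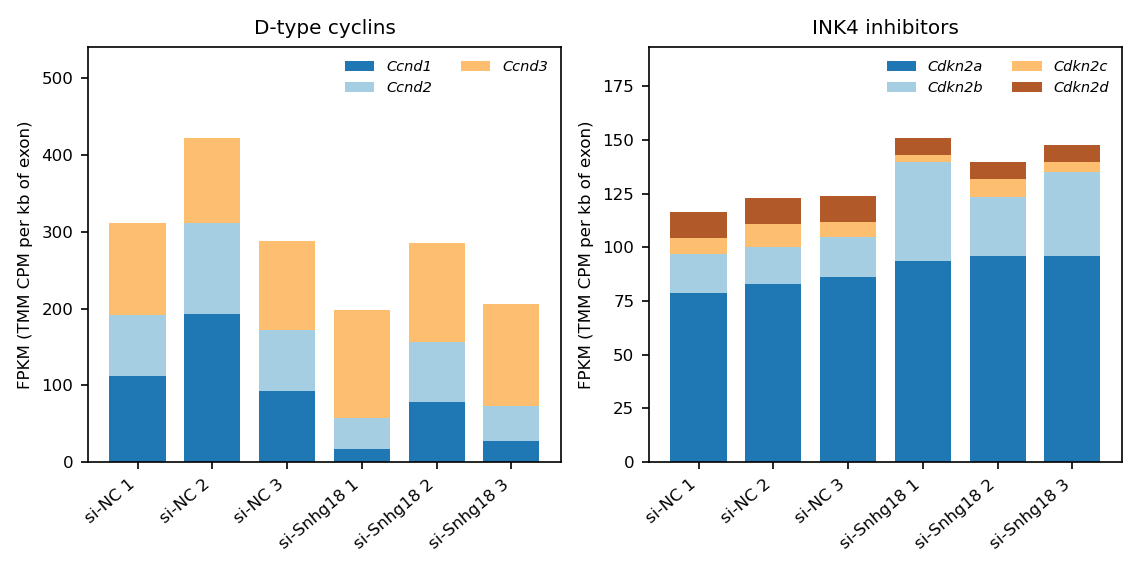
Stacked levels per length (y axes, FPKM from TMM-normalized CPM, from 0) of the 3 D-type cyclins (left) and the 4 INK4 inhibitors (right) in each of the 6 libraries (x axes). The D-type sum lies between 288 and 423 FPKM in si-NC and between 198 and 286 FPKM in si-*Snhg18*, with *Ccnd1* shrinking, and the INK4 sum between 116 and 124 FPKM and between 140 and 151 FPKM, with *Cdkn2b* widening.

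Among the CIP/KIP inhibitors, *Cdkn1a*, the p53 target that encodes p21 (chromosome 17, 29090976 to 29100727), was at 332, 306 and 352 CPM in si-NC and 283, 194 and 227 CPM in si-*Snhg18*. The groups did not overlap, and here the libraries numbered 2 were the lowest of each group. The log2 fold change was -0.49 ± 0.14 (adjusted p = 0.095), and *Cdkn1a* fell with the block (-0.51, adjusted p = 0.00723) and in DESeq2 (adjusted p = 0.0334). *Cdkn1b*, the gene of p27, was at 49.9, 61.0 and 53.4 CPM in si-NC and 51.8, 61.6 and 54.9 CPM in si-*Snhg18*. Its values interleaved, with a log2 fold change of 0.04 ± 0.11 and an adjusted p of 0.867 (0.701 with the block). *Cdkn1c*, the imprinted gene of p57, was near the detection floor at 0.231 to 1.21 CPM and had no call. Of the CIP/KIP sum per length, 371 ± 23.8 FPKM in si-NC and 267 ± 47.9 FPKM in si-*Snhg18*, *Cdkn1a* made up 96.6% ± 0.518 and 95.1% ± 1.19.

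*Cdkn3*, which despite its symbol encodes a phosphatase that removes the activating phosphate from CDKs, was at 5.09, 7.96 and 3.52 CPM in si-NC and 2.18, 4.61 and 2.41 CPM in si-*Snhg18*. The value of si-*Snhg18* 2 lay between those of si-NC 3 and si-NC 1. It fell with the block (log2 fold change -0.86, adjusted p = 0.0204, against 0.264 without it). Its order of libraries was that of *Ccnb1*, *Ccnb2*, *Cdk1* and *Ccnf*, whose promoters are shown above with its own, in that number 2 was highest in each group. The same held for *Ccne1*, *Cdk6* and *Cdkn2c*, whose matched windows held neither CCAAT nor TTTGAA, and for the uncalled *Cdk2* and *Cdkn1b*.

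The libraries numbered 2 stood apart for many of the members. Among the 18 members that fell with the block, the libraries numbered 2 were the highest of both groups for 13 and the lowest of both for 1. Among the 9 that rose, the libraries numbered 2 were the lowest of both groups for 5 and the highest of both for 1. Among the other 21 tested members they were the highest of both for 6 and the lowest of both for 7. These counts were not taken over all tested genes. The block calls a gene more readily when libraries of the same number deviate alike in both groups. The counts for the called members therefore partly follow from their choice with the block. A single sign within all 3 numbers, which the 27 members show, is nearly fixed by that choice and says nothing more. The plot of differences within each number shows that the size of a fall still varied. The difference was smallest between the libraries numbered 2 for every member that fell except *Cdk6*, *Cdkn1a*, *Cdkn2d* and *Cdkn3*. Among the members that rose, this held for *Ccni*, *Cdk13*, *Cdk14*, *Cdk19* and *Cdkn2b*. The 21 tested members with no call in either fit had log2 fold changes from -0.64 to 0.93.

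**Figure D4:**
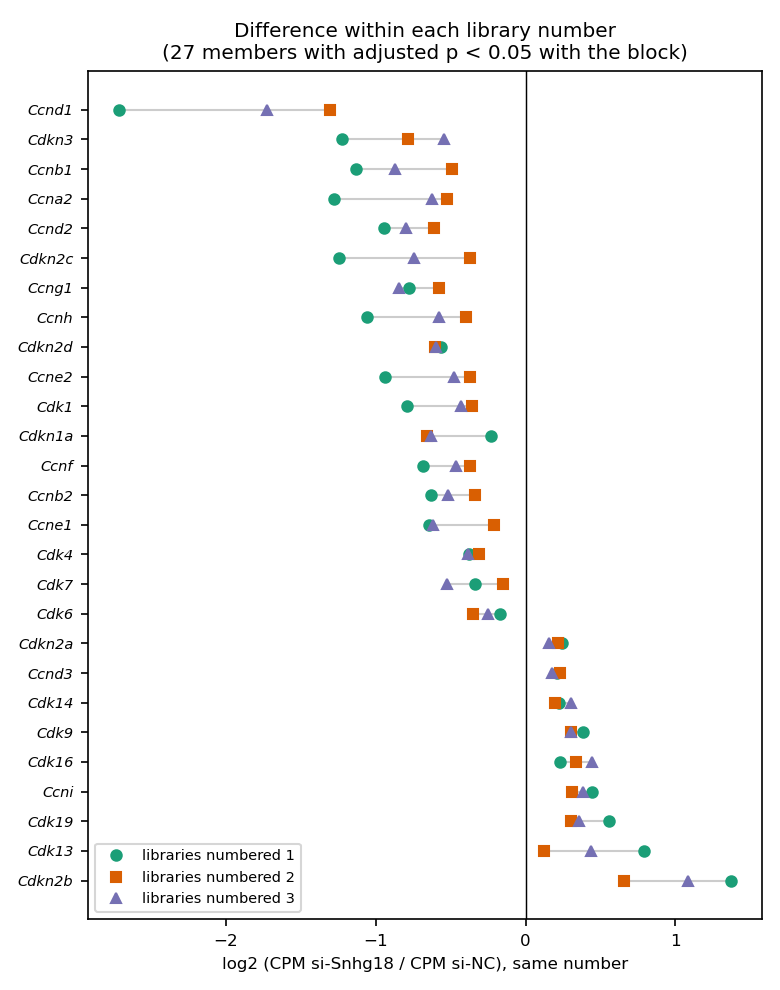
Log2 ratio of CPM in si-*Snhg18* over si-NC between libraries of the same repeat number (x axis, 1 point per number, a grey line spanning the 3) for the 27 members with an adjusted p under 0.05 with the block, ordered by the fitted value (y axis). All points of the 18 members that fell lie left of 0 and all points of the 9 that rose lie right of it; *Ccnd1* runs from -2.72 to -1.30 and *Cdkn2b* reaches 1.37.

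Regulators of the complexes were taken from fixed lists, whose counts stand beside the 13.6% of all tested genes that fell with the block, the 13.6% that rose and the 49.2% with a negative fold change. Without the block 3.71% of all tested genes fell and 3.65% rose. Of 8 genes that act on cyclin-CDK complexes none was called without the block and 3 fell with it (37.5%, median log2 fold change -0.38), namely the activating phosphatase *Cdc25b* (18, 26.4 and 16.9 CPM in si-NC, 10.7, 18.1 and 11.6 CPM in si-*Snhg18*, adjusted p = 0.00573 with the block), the inhibitory kinase *Wee1* (adjusted p = 0.00566) and the small subunit *Cks2* (0.0156). *Cdc25a* and *Cdc25c* were not called (adjusted p = 0.0666 and 0.0737 with the block). Of 17 pocket protein, E2F and related genes none was called without the block and 3 fell with it, or 17.6%, a share near that of all genes. They were *Rb1* (log2 fold change -0.35, adjusted p = 0.027), *E2f6* (-0.55, 0.00163) and the mitotic factor *Foxm1* (-0.41, 0.0153), with a median of -0.24 over the list. *E2f3* had a log2 fold change of -0.24 and was not called (0.0763 with the block). Of 9 genes that govern the destruction of cyclins and inhibitors, the SCF scaffold *Cul1* fell without the block (102, 108 and 106 CPM in si-NC, 78.4, 79.9 and 81.7 CPM in si-*Snhg18*, log2 fold change -0.40, adjusted p = 0.0189). With the block 4 of the 9 fell (44.4%) and 2 rose (22.2%). The genes *Cul1*, *Skp2*, which targets p27 (-0.67, adjusted p = 0.0119), *Cdc20* (-0.74, 0.00372) and *Fbxo5* (-0.84, 0.00563) fell, and *Fbxw7*, which targets cyclin E (0.50, 0.0263), and *Ambra1*, which targets the D-type cyclins (0.26, 0.0216), rose.

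Of 16 proliferation genes none was called without the block, 9 fell with it (56.25%, against 13.6% of all genes) and 15 were negative (93.75%, against 49.2%, median log2 fold change -0.44). *Tk1* was at 27.5, 32.0 and 22.9 CPM in si-NC and 14.0, 21.9 and 15.8 CPM in si-*Snhg18* (-0.68 and adjusted p = 0.00588 with the block), and the mitotic kinases *Bub1* (-0.72, 0.00265), *Aurka* (-0.76, 0.00512) and *Plk1* (-0.70, 0.00678) were among the others. The genes of the list called in neither fit were *Pcna* and *Mcm2* to *Mcm7*. Their lowest adjusted p with the block was 0.0695, for *Mcm6*. The log2 fold changes of *Mcm2* to *Mcm7* lay between -0.28 and -0.05 without the block. The p53 list of 11 genes held 3 calls without the block, where 7.36% of all tested genes were called. *Gadd45a*, a stress gene, rose from 5.40, 11.4 and 5.80 CPM to 18, 34 and 20.1 CPM (log2 fold change 1.67, adjusted p = 0.0478), while the p53 target *Sesn2* (-0.48, 0.0284) and the p53 inhibitor *Mdm4* (-0.37, 0.0351) fell. With the block 6 of the 11 fell (54.5%) and 1 rose (9.09%), and *Phlda3* was among those that fell (-0.27, adjusted p = 0.0187). Of 7 immediate early genes none was called without the block, and *Egr1* (-0.81, adjusted p = 0.000908) and *Jun* (-0.30, 0.0281) fell with it, but not *Fos* (0.067) or *Junb* (0.0757).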

How the data were processed

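The authors prepared stranded mRNA libraries (TruSeq) of transfected mPASMCs and deposited raw counts of reads per gene, not normalized, with exon lengths and GRCm38.p6 positions. HISAT2 and mm10 are named in the submitters' processing notes. The counting program, its strand setting and the read filters are not given in the sources used here, so a pair of genes that overlap on opposite strands may share reads. All 6 columns of counts belong to these 6 libraries, and no row lacked a gene.

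Counts were tested in R 4.3.3 with edgeR 4.0.16. There, 14531 genes passed filterByExpr (minimum count 10), were scaled by TMM, fitted with glmQLFit and tested with glmQLFTest, and p-values were adjusted by Benjamini-Hochberg over all of them. Adjusted p-values in the text come from this quasi-likelihood test, without the block unless it is named. The SE of a log2 fold change was derived from the test, as its absolute value divided by the square root of the F statistic. CPM values use TMM factors, and FPKM values are those CPM divided by exon length in kilobases. Floors of 3 reads cover counting error only, since reads carry no molecular identifiers. The common biological coefficient of variation was 0.218.

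Repeat numbers come from the labels. Deviations of same-numbered libraries from their group means correlated across genes at r = 0.41, 0.742 and 0.359, all above 0.1, so the numbers were treated as pairing the libraries, although swapping numbers 1 and 3 gave almost the same mean (0.475 against 0.503). Genes are not independent replicates. The fit with the number as a block is given beside the one without it.

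Genes were named by rule: the targeted gene, the 3 genes whose proteins were studied, members called in either fit, core cell cycle members, untested members, the up to 4 smallest p-values of each list, and whole marker lists with a call. Genes that make up a count of 5 or fewer, overlapping genes and members given by range were named after their values were seen. Members and lists were chosen with earlier results of these data known. Alternatives were DESeq2 1.42.0, RLE factors, library totals, other filters, a 1.5-fold rule, the block and leaving out each library. The block without each numbered pair was added after seeing the data. On simulated data for this comparison (200 genes changed, 14318 genes), the test recovered 59.2% of them with 7.31% of calls false, and with the block 57.2% with 6.29% false. The simulated counts held no effect of the repeat number. They therefore do not give the share of false calls with the block where same-numbered libraries deviate together, as they did here.

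Promoter windows came from RefSeq (GRCm38.p6), and both strands of the 250 bases upstream were searched for CCAAT and for TTTGAA, and also for the GC box GGGCGG and the E2F-type run TTTCCCGC.

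One gene of the leukocyte marker list is not reported here.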

Additional observations from a re-analysis of the deposited data

How the results depend on the processing

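Without the block 2 members rose and 3 fell. The members that rose numbered 1 with the 1.5-fold rule, 1 with RLE factors, 1 without the low-count filter, 5 in DESeq2 and 9 with the replicate block, and those that fell numbered 5 in DESeq2 (16.2% of all genes it gave an adjusted p called) and 18 with the block. Leaving out 1 library gave 0 to 8 that rose and 0 to 14 that fell. The upper ends came without si-*Snhg18* 2 (22.1% of all genes called). There were 0 of each without si-NC 1, si-NC 3 or si-*Snhg18* 3, where edgeR called no gene of the whole table, and 1 that fell (*Ccng1*) without si-NC 2 or si-*Snhg18* 1. At an unadjusted p under 0.05, 17 members passed in the fit of all 6 libraries (24.9% of all genes). With the block and 1 numbered pair left out, 9 rose and 19 fell without pair 1 (31% of all genes called), 9 and 16 without pair 2 (24%) and 1 and 3 without pair 3 (4.44%). The median log2 fold change of the members was -0.10 with the block and ranged from -0.184 to -0.0554 over the fits without 1 library and was -0.112, -0.161 and -0.115 without pairs 1, 2 and 3. The log2 fold change of *Snhg18* ranged from -1.14 to -1.06 over the fits without 1 library and was -1.15 with the block without pair 2. Its adjusted p was above 0.05 without si-NC 1 (0.0659), si-NC 3 (0.07) or si-*Snhg18* 3 (0.0703). *Cdkn1b* and *Pcna*, not called in any fit, changed sign, with *Cdkn1b* from -0.0405 (without si-*Snhg18* 2) to 0.118 (without si-NC 2) and also negative without si-NC 1 (-0.0294), and *Pcna* from -0.0417 (without si-NC 3) to 0.0757 (without si-NC 2) and also negative without si-*Snhg18* 1 (-0.0229) and with the block without pair 1 (-0.0283) or pair 3 (-0.0102). The block changed the call of 22 members from no call to a call and ended none of the 5. The cause of these changes was not tested. With 3 libraries a group, small differences in genes such as *Cdkn1c*, at or under 1.21 CPM, were not detectable at this depth.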
